A study of Mus musculus with 13 samples.

Results

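Transcripts of 42 genes of calcium signalling were followed in RNA from medial habenula neurons: calmodulin, the calmodulin-dependent (CaM) kinases and their inhibitors, calcineurin, protein kinase C, the channels and pumps of the calcium stores, the pumps and exchangers of the plasma membrane, and the neuronal calcium sensor proteins. The genes were chosen by symbol, and all 42 were found among the 22682 gene symbols shared by the 13 libraries. The study used translating ribosome affinity purification (TRAP). Anti-GFP beads pull down ribosomes that carry a GFP tag, which is meant to enrich RNA of the tagged cells. There were 6 immunopurified (IP) libraries of Chat-TRAP DW167 mice that are wild type for Gpr151 (libraries 682, 852, 1091, 1092, 1093 and 1094), 6 IP libraries of Gpr151-KO::Chat-TRAP DW167 mice (683, 855, 1099, 1100, 1101 and 1102) and 1 library of unpurified tissue, the input, from wild-type mice (824). All animals carried the Chat-TRAP transgene, were older than 8 weeks and were not described by sex or treatment in the labels, and each library pooled medial habenula of 4 mice, or of 3 mice for 852 and 855. The Chat gene drives the tag, so the IP is meant to stand for cholinergic neurons and the input for all cells of the dissected tissue. Some RNA of other cells remained in the IP, in amounts given below.

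When calcium enters a neuron it binds calmodulin, which switches on the CaM kinases and the phosphatase calcineurin, while calcium together with diacylglycerol switches on the conventional isoforms of protein kinase C. Inositol trisphosphate (IP3) and ryanodine receptors release calcium from the endoplasmic reticulum, SERCA pumps refill that store, and plasma membrane pumps and sodium-calcium exchangers clear calcium from the cell. CaM kinase II and protein kinase C are known for their part in synaptic plasticity, and habenular cholinergic neurons, which express nicotinic receptors at a high level, admit calcium through those receptors.

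Gpr151, the targeted gene and an orphan G protein-coupled receptor concentrated in the habenula, was read first. Levels are given in CPM, which are counts scaled to each library's total over the 22682 shared symbols. Gpr151 stood at 66.2 CPM in the input, 479 ± 95.6 CPM in the wild-type IP and 155 ± 42.3 CPM in the knockout IP (SD, n = 6 each). Reads of the gene remained in all 6 knockout libraries, at 121 to 212 CPM, each above the input and below the lowest wild-type IP library (382 CPM). It fell by 1.63 on the log2 scale in the knockout (standard error 0.17, edgeR's quasi-likelihood test, Benjamini-Hochberg adjusted p = 0.00592, range over the alternatives 4.68e-14 to 0.424). With the 8 later libraries alone the fall was by 1.54 and the adjusted p was 0.424, and without knockout library 683 the fall was by 1.54 and the adjusted p was 0.0538. Counts on genes ranged from 28375912 to 64388596 per IP library and were 54701790 in the input. A count of 0 allows up to 3 counts, which equal 0.0502 to 0.121 CPM per IP library and cover counting error only. Of 14 medial habenula markers 12 were at least 2 times the input in every wild-type IP library, whereas 10 of 10 oligodendrocyte, 7 of 10 astrocyte and 5 of 6 tested GABAergic markers were at most the inverse of that ratio in every one. Other lists were mixed: of 5 hippocampal and cortical markers tested 2 (Neurod2 and Nrgn) were enriched and 1 was depleted, of 5 choroid plexus and ependymal markers 1 (Otx2) was enriched and 4 were depleted, and of 4 endothelial and mural markers 0 were depleted. The libraries were not alike in what was left of other cells. The mean log2 CPM of glial and vascular markers was highest in 1099 (3.75), 1102 (3.45) and 1091 (3.00) and between 0.77 and 2.38 in the other 9, so that 1 wild-type and 2 knockout libraries stood apart. Gfap (astrocytes), Mbp (oligodendrocytes) and Gad1 (GABAergic neurons) were above 0 in every IP library, with lowest wild-type levels of 1.25, 31.6 and 2.21 CPM. The tables of libraries 682, 683, 852 and 855 also list another set of gene symbols than those of the 8 later libraries.

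Purified RNA held more Prkcb, Atp2b3 and Slc8a1 and less of most other members than the input. Of the 42, 39 reached 5 CPM, either in unpurified tissue or on average over wild-type IP libraries. A gene was called enriched when, after adding 1 CPM, each wild-type IP library reached at least 2 times the input, and depleted when all 6 had at most the inverse. With 1 input library this is a rule of size without a test, and the input has no replicate error. Prkcb, Atp2b3 and Slc8a1 were enriched, 3 of 39 against a background of 4.71% (538 of 11434 genes). Vsnl1, Hpca, Camk1d, Camkv, Camk2n1, Camkk1 and Hpcal4 were depleted, 7 of 39 against a background of 11.1% (1274 of 11434 genes). The other 29 met neither rule, and Itpr3, Ryr1 and Atp2a3 stayed under 5 CPM. The members' median log2 ratio of wild-type IP to input was -0.95, against -0.07 for all genes tested. With TMM-scaled totals the median of all genes shifted to 0.16 and that of the members to -0.75, with 3 enriched and 5 depleted (Camk1d and Hpca no longer met the rule), while over all genes 703 were enriched and 917 depleted. All 6 wild-type IP libraries lay below the input for 26 of the 42 members and above it for 6. The same was not counted over all genes, so these numbers are not shown to be particular to the members. A depleted transcript may come from fewer cells that make it or from less of it per cell, and bulk libraries cannot tell these apart.

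**Figure D1:**
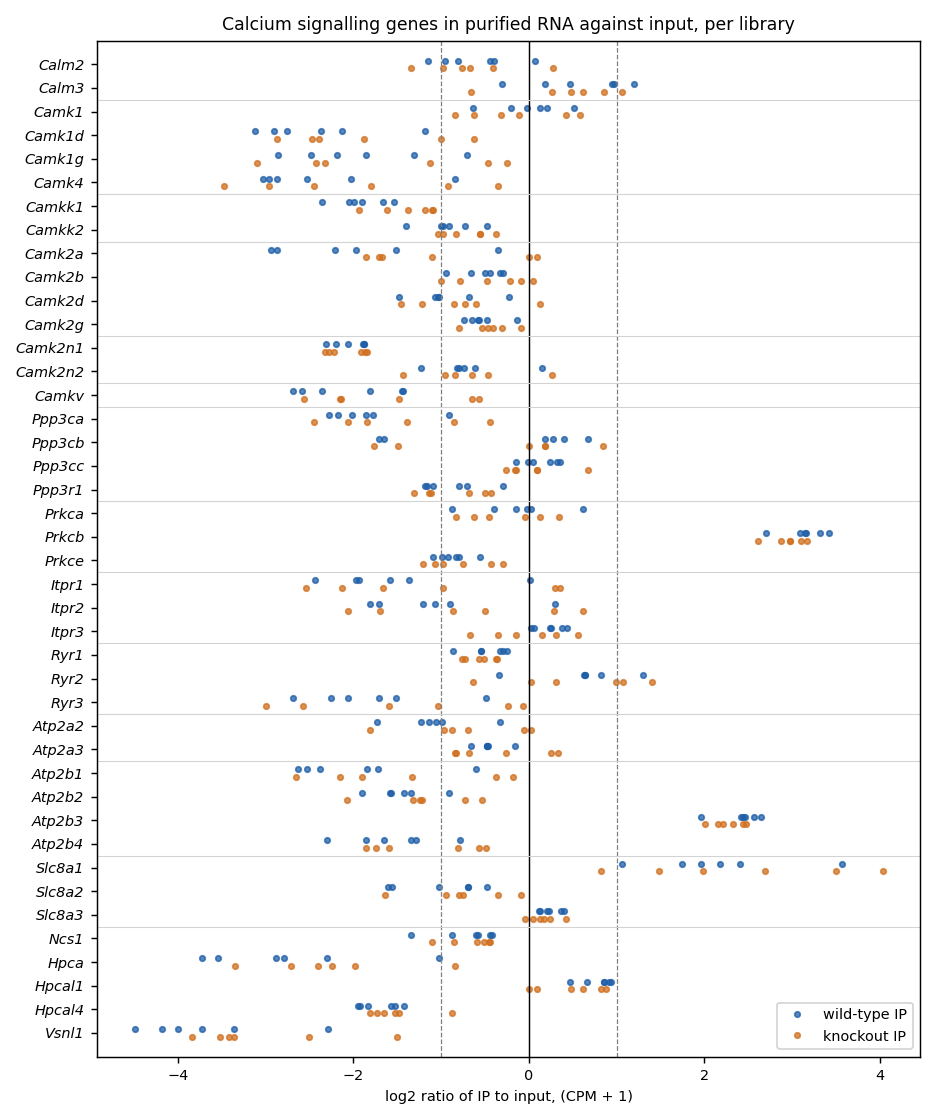
Log2 ratio of each IP library to the single input library, on CPM + 1, for the 42 genes grouped by family (blue, 6 wild-type IP; orange, 6 knockout IP; dashed lines at a 2-fold ratio each way). Prkcb and Atp2b3 lie to the right of the 2-fold line in all 12 libraries, and Vsnl1, Camk2n1 and Camkk1 to the left in all 12.

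Promoter sequence is shown for Slc8a1 among the enriched genes and for Vsnl1 and Camkk1 among the depleted ones, because they stand for both directions and for the kinases, and because their windows lie wholly or mostly outside the annotated exons of their own gene. Windows are the 250 bases before 1 RefSeq start of each gene (build GRCm38.p6), and the Vsnl1 sequence is cut to the 215 bases before its first GENCODE exon. Slc8a1 is chr17:81738388-81738637 on the minus strand, Vsnl1 chr12:11436614-11436828 on the minus strand and Camkk1 chr11:73018738-73018987 on the plus strand. Capitals mark the GC box GGGCGG on either strand.
Slc8a1: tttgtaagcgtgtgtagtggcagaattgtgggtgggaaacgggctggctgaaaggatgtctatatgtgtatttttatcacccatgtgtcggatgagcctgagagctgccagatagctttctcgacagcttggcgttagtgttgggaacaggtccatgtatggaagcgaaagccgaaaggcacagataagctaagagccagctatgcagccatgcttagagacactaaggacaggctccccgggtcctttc
Vsnl1: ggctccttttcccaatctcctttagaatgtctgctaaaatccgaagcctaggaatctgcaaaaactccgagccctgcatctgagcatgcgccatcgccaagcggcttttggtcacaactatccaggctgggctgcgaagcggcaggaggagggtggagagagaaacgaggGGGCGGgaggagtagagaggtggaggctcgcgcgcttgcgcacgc
Camkk1: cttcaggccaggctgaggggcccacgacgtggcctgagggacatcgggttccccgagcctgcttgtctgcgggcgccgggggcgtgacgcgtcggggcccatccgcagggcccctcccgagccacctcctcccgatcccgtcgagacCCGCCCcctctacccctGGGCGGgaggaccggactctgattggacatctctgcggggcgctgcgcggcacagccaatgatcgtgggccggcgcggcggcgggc
Of the 10 called members 8 matched a RefSeq window, and Atp2b3 and Camk2n1 did not. RefSeq listed 2 starts for Camk1d, 2 for Vsnl1 and 3 for Hpca, and only 1 window per gene was searched. Searched on both strands, the GC box was in all 6 depleted windows and in 1 of 2 enriched windows, that of Prkcb. It was in 32.7% of all 32817 windows of this length. The windows of Prkcb and Hpcal4 lay wholly in exons of their own gene. That of Camkv had 246 of its 250 bases there, and that of Camk1d 65. Base composition was mixed: G and C made up 50.4% of the Slc8a1 window, 58.0% of the Vsnl1 window and 74.4% of the Camkk1 window. The others had 48.4% (Camk1d), 60.4% (Hpcal4), 65.2% (Prkcb), 67.6% (Camkv) and 71.2% (Hpca). The median over all windows was 52.4%, so the share of the GC box over all windows is not matched for base composition. Neither the cAMP response element TGACGTCA (1.55% of all windows) nor the TATA box TATAAA (12.4% of all windows) was in any of the 8.

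Of the 3 protein kinase C genes among the members, Prkcb (protein kinase C beta) held most of the purified RNA. The 6 other isoforms are outside the 42 and not part of the shares below. Their summed level was 1183 CPM at the wild-type IP median. Prkcb, a conventional isoform that needs calcium and diacylglycerol (chromosome 7, 122288751 to 122634402, plus strand, GRCm38), had 186 CPM in the input. Its wild-type IP values were 1214 at the lowest, 1657 at the median and 1993 CPM at the highest, and the knockout values were 1137, 1471 and 1684 CPM. Every IP library lay above the input, and the genotypes overlapped, with 1 knockout library below all wild-type ones. The log2 ratio to input was 3.15 at the wild-type median (2.70 to 3.42) and 2.98 at the knockout median (2.61 to 3.18). Different genes can be compared only per length. Per kb of exon, Prkcb stood at 217 ± 34.8 CPM per kb in the wild-type IP (SD, n = 6), rank 3 of the 42, after Calm2 and Calm3. Per kb of coding sequence it stood at 766 CPM per kb, and Camk2n1 (1402) and Ppp3r1 (772) also lay above it. Per kb of exon, Prkcb made up 31.0% of the 3 isoforms' summed level in the input, 86.8% ± 2.0 in the wild-type IP and 84.9% ± 3.4 in the knockout IP. Prkce, a calcium-independent isoform, went the other way, with 60.4% in the input and 10.6% ± 1.7 in the wild-type IP. By the length of the longest transcript, Prkcb led the input as well, with 47.3% against 46.6% for Prkce, and held 93.0% ± 1.1 of the wild-type IP. Prkce had 343 CPM in the input and 161, 186 and 233 CPM at the lowest, median and highest wild-type IP. Prkca, another conventional isoform, had 60.9 CPM in the input and 32.7 to 93.8 CPM across the wild-type IP libraries, on both sides of the input. Prkce shares 6.50% of its exon bases with another gene on the same strand, AC154542.1.

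CaM kinase II, which phosphorylates synaptic targets and can hold its own activity, was lower in the IP than in the input for all 4 subunit genes by median, and its subunit make-up differed. Camk2b, the beta subunit, had 645 CPM in the input, against 336, 464 and 527 CPM in the wild-type IP and 322, 511 and 668 CPM in the knockout IP (lowest, median and highest). Camk2a, the alpha subunit and the most abundant CaM kinase II gene of the forebrain, had 562 CPM in the input, against 72.2, 131 and 441 CPM in the wild-type IP and 154, 218 and 598 CPM in the knockout IP. The 441 CPM of library 1091 is 1 value apart from the other 5 wild-type libraries, which ended at 197 CPM. Libraries 1099 and 1102 were likewise the highest of the knockout, at 598 and 561 CPM. On the scale per kb, Camk2b supplied 38.5% of the 4 subunits in the input, 52.9% ± 8.3 in the wild-type IP and 45.9% ± 6.7 in the knockout IP. Camk2a supplied 40.9%, 22.0% ± 10.1 and 32.2% ± 8.7. Per kb of coding sequence the order in the input was the other way, with 34.2% for Camk2b and 33.8% for Camk2a. Camk2b led in 5 of 6 wild-type and 4 of 6 knockout libraries. Camk2d, the delta subunit, supplied 10.2%, 10.8% ± 2.2 and 9.5% ± 2.2, with the input inside the range of both IP groups. Camk2g, the gamma subunit, supplied 10.4%, 14.3% ± 2.7 and 12.4% ± 3.2. Its share was above the input in every wild-type IP library (11.7% to 18.6%) and on both sides of it in the knockout IP (8.7% to 16.7%).

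**Figure D2:**
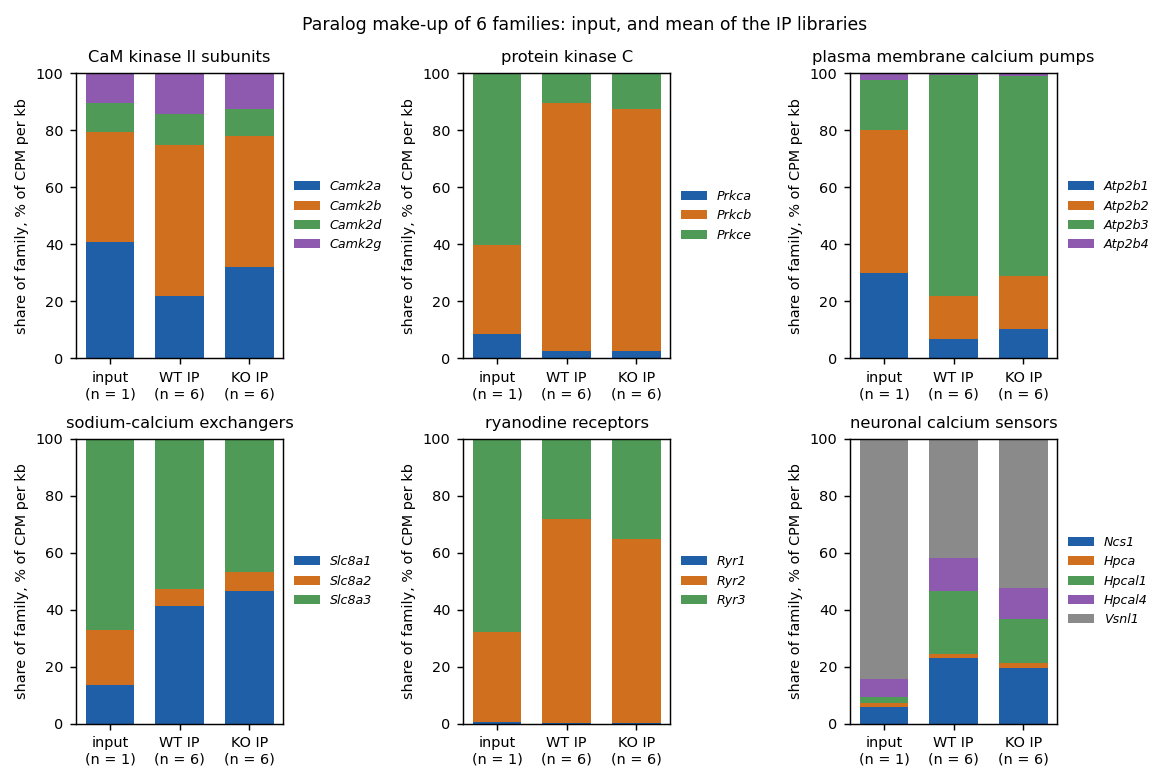
Share of each paralog in its family's summed CPM per kb of exon, in the input (n = 1) and as the mean of the wild-type and knockout IP libraries (n = 6 each), for 6 families. Prkcb, Atp2b3 and Ryr2 hold most of their families in both IP groups. Prkce, Atp2b2 and Ryr3 lead in the input (by the longest transcript, Prkcb leads Prkce there). The protein kinase C family here is Prkca, Prkcb and Prkce only.

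The 2 inhibitors of CaM kinase II bind its active form. Camk2n1 had 1341 CPM in the input and was depleted, with 270, 340 and 364 CPM in the wild-type IP and 267, 321 and 373 CPM in the knockout IP. All 12 IP libraries lay within 267 to 373 CPM, the narrowest range by ratio among the 7 depleted genes. Camk2n2 had 161 CPM in the input and 68.3, 94.2 and 179 CPM in the wild-type IP, where library 682 alone passed the input. Camkv, a kinase-like protein of synaptic vesicles that lacks activity, was depleted with 180 CPM in the input, against 27.0, 42.6 and 65.8 CPM in the wild-type IP and 29.6, 52.1 and 121 CPM in the knockout IP.

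The CaM kinases that work through the nucleus and cytoplasm were mostly low in the IP. Camk1d had 264 CPM in the input and 29.3, 44.2 and 115 CPM in the wild-type IP, and was depleted. Camk4, the nuclear kinase that acts on CREB (chromosome 18, 32934931 to 33191228), had 243 CPM in the input and 28.9, 36.7 and 135 CPM in the wild-type IP. Its 135 CPM came from library 1091, and the other 5 ended at 58.9 CPM. Camk1g was low throughout, with 11.5 CPM in the input and 0.725 to 6.70 CPM in the wild-type IP. Camk1 had 30.4 CPM in the input and 19.2, 31.6 and 43.8 CPM in the wild-type IP, on both sides of it. Camkk1 and Camkk2 are the upstream kinases of these enzymes. Camkk1 was depleted, with 39.2 CPM in the input, against 6.87, 9.42 and 12.8 CPM in the wild-type IP and 9.46, 15.6 and 17.8 CPM in the knockout IP. Camkk2 had 58.9 CPM in the input and 21.8, 30.1 and 42.2 CPM in the wild-type IP, all below the input. For Camk1d, Camk1g, Camk4, Camkk1 and Camkk2 all 12 IP libraries, of both genotypes, lay below the input. On the scale per kb of exon Camkk1 made up 66.1% of this pair in the input and 47.8% ± 8.7 in the wild-type IP, and per kb of coding sequence it made up 48.1% and 30.7% ± 7.6.

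Calmodulin itself was the most abundant member per kb. Calm2 stood at 548 ± 175 and Calm3 at 473 ± 169 CPM per kb in the wild-type IP (SD, n = 6), closer than their spread. Calm2 had 1184 CPM in the input and 533, 771 and 1239 CPM in the wild-type IP. Calm3 had 721 CPM in the input and 583, 1197 and 1657 CPM in the wild-type IP, with 5 of 6 libraries above the input. Per kb of exon, each of them led the pair in 3 wild-type and 3 knockout libraries. By the length of the longest transcript Calm2 led in 4 wild-type and 4 knockout libraries. Per kb of coding sequence Calm3 led in 4 and 4. The calmodulin genes encode the same protein and have similar coding sequences, so reads may be divided between them in an uncertain way.

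Calcineurin, the phosphatase that opposes these kinases, joins a catalytic subunit to the regulatory subunit Ppp3r1. Ppp3r1 had 703 CPM in the input and 309, 366 and 574 CPM in the wild-type IP, and shares 14.3% of its exon bases with Wdr92 on the same strand. Ppp3ca, the alpha catalytic subunit, had 477 CPM in the input and 97.4, 124 and 253 CPM in the wild-type IP. Ppp3cb, the beta catalytic subunit, had 518 CPM in the input and was divided by library set rather than by genotype. It had 164 and 157 CPM in wild-type libraries 682 and 852 and 152 and 183 CPM in knockout libraries 683 and 855, against 589 to 827 CPM and 516 to 930 CPM in the later wild-type and knockout libraries. The earlier and later libraries did not overlap. The same held for Slc8a1, Camk4, Itpr1, Ryr3 and Ppp3ca, all lower in the earlier libraries. Slc8a1 had 87.6 to 166 CPM in the earlier and 194 to 819 CPM in the later libraries. Ppp3ca had 86.6 to 113 CPM and 117 to 352 CPM. Camk1 and Ncs1 were higher in the earlier libraries, again without overlap. For Camk1 these were 35.3 to 46.2 CPM against 16.5 to 33.4 CPM. How many of all genes split in this way was not counted, so the split is not shown to be particular to these members. Whether the gene lists of these tables play a part was not tested. Ppp3cb was singled out after its values were seen. Ppp3cc had 43.0 CPM in the input and 38.8 to 55.1 CPM in the wild-type IP, on both sides of the input.

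**Figure D3:**
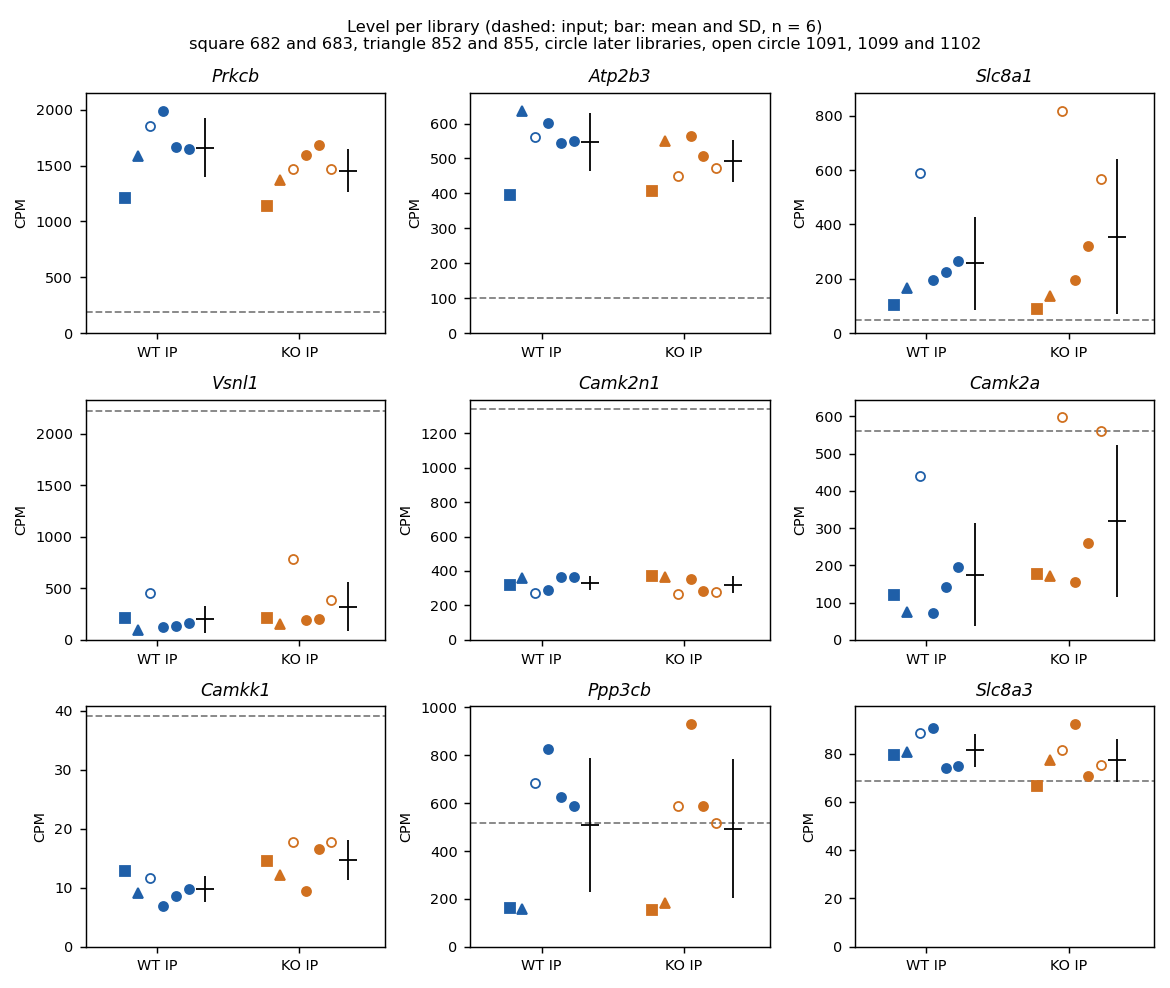
CPM of 9 of the 42 genes in each wild-type IP library (blue) and knockout IP library (orange), with the mean and SD (n = 6 each) at the right and the input as a dashed line; each axis starts at 0. Libraries 1091, 1099 and 1102, with open circles, are the 3 highest for Slc8a1, Vsnl1 and Camk2a, and the 4 earlier libraries (squares and triangles) are the lowest for Ppp3cb.

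The channels that release stored calcium were led by Itpr1 and Ryr2. Itpr1 had 230 CPM in the input and 41.8, 67.9 and 233 CPM in the wild-type IP, with library 1091 at 233 CPM and the other 5 at or below 88.7 CPM. It held 93.2% of the IP3 receptors' summed level per kb in the input and 89.2% ± 3.1 in the wild-type IP. Itpr2 had 12.1 CPM in the input and 2.72 to 15.1 CPM in the wild-type IP, and Itpr3 had at most 1.89 CPM in any IP library. Ryr2 had 62.2 CPM in the input and 48.8, 97.5 and 155 CPM in the wild-type IP, with 5 of 6 libraries above the input. Ryr3 had 87.8 CPM in the input and 12.7, 23.2 and 62.1 CPM in the wild-type IP, all below it. Ryr2 made up 31.6% of the ryanodine receptors per kb in the input, 71.5% ± 5.6 in the wild-type IP and 64.4% ± 8.6 in the knockout IP. Ryr1, the skeletal muscle form, had 0.816 CPM in the input and at most 0.528 CPM in a wild-type IP library. It had 0 counts in library 1092, which allows up to 0.0604 CPM, so that its level is near the limit of the depth. Atp2a2, the SERCA pump of neurons and heart, had 1296 CPM in the input, against 390, 606 and 1031 CPM in the wild-type IP and 370, 755 and 1320 CPM in the knockout IP. It accounted for 99.9% of the SERCA pair per kb in each group, and Atp2a3 had at most 1.32 CPM.

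Among the plasma membrane pumps, another paralog led in the IP than in the input. Atp2b3, the pump isoform restricted mainly to neurons, is on chromosome X at 73503086 to 73571005 (plus strand). It had 101 CPM in the input, against 396, 555 and 637 CPM in the wild-type IP and 407, 490 and 565 CPM in the knockout IP. No IP library came near the input, and the genotypes overlapped. Atp2b3 supplied 17.5% of the 4 pumps per kb in the input, 77.4% ± 5.2 in the wild-type IP and 70.3% ± 10.1 in the knockout IP. Atp2b2 had 757 CPM in the input and 203, 267 and 402 CPM in the wild-type IP, and Atp2b1 had 542 CPM and 86.6, 127 and 358 CPM. Their shares in the wild-type IP were 15.1% ± 1.8 and 6.9% ± 3.5, against 50.3% and 29.9% in the input. Of the sodium-calcium exchangers, Slc8a1 had 49.0 CPM in the input, against 103, 210 and 590 CPM in the wild-type IP and 87.6, 260 and 819 CPM in the knockout IP. It was enriched, although its range was wide: library 1091 held 590 CPM and the other 5 wild-type libraries 103 to 265 CPM, and library 1099 held the 819 CPM. Slc8a3 was the steadiest exchanger, with 68.5 CPM in the input and 74.2, 80.0 and 90.8 CPM in the wild-type IP, all slightly above it. Per kb of exon, Slc8a3 led the exchangers in both, with 67.3% in the input and 52.7% ± 12.4 in the wild-type IP. Slc8a1 held 13.6% and 41.3% ± 12.6. Per kb of coding sequence, Slc8a3 led the input with 50.2% and Slc8a1 the wild-type IP with 69.4% ± 10.6. Slc8a2 had 19.2 CPM in the input and 5.62, 10.2 and 13.5 CPM in the wild-type IP.

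The neuronal calcium sensors, small proteins that move to membranes when they bind calcium, held 3 of the 7 depleted members. Vsnl1, visinin-like protein 1, is on chromosome 12 at 11325242 to 11436613 (minus strand). It had 2223 CPM in the input, against 97.7, 153 and 455 CPM in the wild-type IP and 155, 212 and 786 CPM in the knockout IP. Its median log2 ratio to input was -3.86 in the wild type, the lowest of all 39, and the ratio stayed past 2-fold in all 12 libraries. It nevertheless remained the highest sensor by level per kb, at 84.4% of the family in the input and 41.8% ± 14.5 in the wild-type IP. Per kb of coding sequence in place of all exon bases, Ncs1 led the wild-type IP with 36.3% ± 10.1, and Vsnl1 held 28.6% ± 13.1. Hpca, hippocalcin, was depleted with 56.0 CPM in the input and 3.30, 7.01 and 27.1 CPM in the wild-type IP. The 27.1 CPM of wild-type library 682 and the 30.9 CPM of knockout library 683 were far from the other 5 of their groups. Hpcal4 was depleted with 454 CPM in the input and 117, 139 and 169 CPM in the wild-type IP. Hpcal1 was the only sensor with all 6 wild-type IP libraries above the input, at 62.5, 81.9 and 86.9 CPM against 44.8 CPM. Ncs1, a sensor of presynaptic terminals, had 367 CPM in the input and 144, 243 and 274 CPM in the wild-type IP. By level per kb of exon, Ncs1 held 23.2% ± 7.6 and Hpcal1 21.8% ± 6.7 of the family in the wild-type IP, against 5.9% and 2.0% in the input.

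Several of these patterns moved with the 3 libraries that held most glial and vascular RNA. The summed CPM of the 10 astrocyte markers was 2193 in the input, 163, 240 and 992 in the wild-type IP and 165, 423 and 1800 in the knockout IP (lowest, median and highest). That of the 8 GABAergic markers was 768, then 25.0, 76.2 and 192, then 75.4, 163 and 387. Libraries 1091, 1099 and 1102 were the 3 highest of 12 for 21 of the 42 members, and for 19 of the 38 at 5 CPM or more (50.0%), against 14.7% of genes at that level (1528 of 10396). The members concerned include Slc8a1, Vsnl1, Camk2a, Camk1d, Camk4, Camkv, Itpr1, Atp2a2 and Atp2b1. Calm2, Calm3, Prkcb, Atp2b3, Camk2n1, Ppp3cb and Slc8a3 were not among them. Whether RNA of the other cells accounts for the higher values was not tested.

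The genotype comparison asks which of these transcripts differ on the ribosomes of the cells between mice labelled Gpr151-KO and wild type. No member passed the test. Of 14317 genes tested, 2 were called (0.0140%): Gpr151, which fell, and Oxt, which rose. Among the 42 members 0 were called by edgeR's quasi-likelihood test with Benjamini-Hochberg adjustment and 1 had an unadjusted p under 0.05, and DESeq2 called 0 of them and 12 of 19580 genes. Of all genes tested 438 had an unadjusted p under 0.05. Members' log2 fold changes ran from -0.52 to 0.90, with a median of 0.19 against 0.00 for all genes, 29 above 0 and 13 below 0. The 95% interval held 0 for 41 of 42, and for no member were all 6 knockout libraries above or below all wild-type ones. Neither the signs nor such separation was counted over all genes. The median half-width of the interval was 0.47 and the widest was 1.81, and an interval that holds 0 does not show that the genotypes are alike. With libraries 682, 683, 852 and 855 alone, 2 of 13958 genes were called, Camk2a among them. Most markers of other cells moved the same way without passing the test. All 10 astrocyte markers lay above 0 (median 0.86), as did all 6 tested GABAergic markers (median 1.09). So did all 10 oligodendrocyte and all 5 oligodendrocyte precursor markers. Other lists were mixed. Microglial markers had 5 above 0 and 2 below, as had hippocampal and cortical ones. Endothelial and mural markers had 6 and 1. Lateral habenula and thalamic markers had 5 and 1, as had choroid plexus and ependymal ones. All 14 medial habenula markers lay below 0 (median -0.21). The part of other cells in the members' values was not tested. With the glial and vascular score as a covariate 19 members lay above 0 and 23 below 0, and their median was -0.01, against 29, 13 and 0.19.

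**Figure D4:**
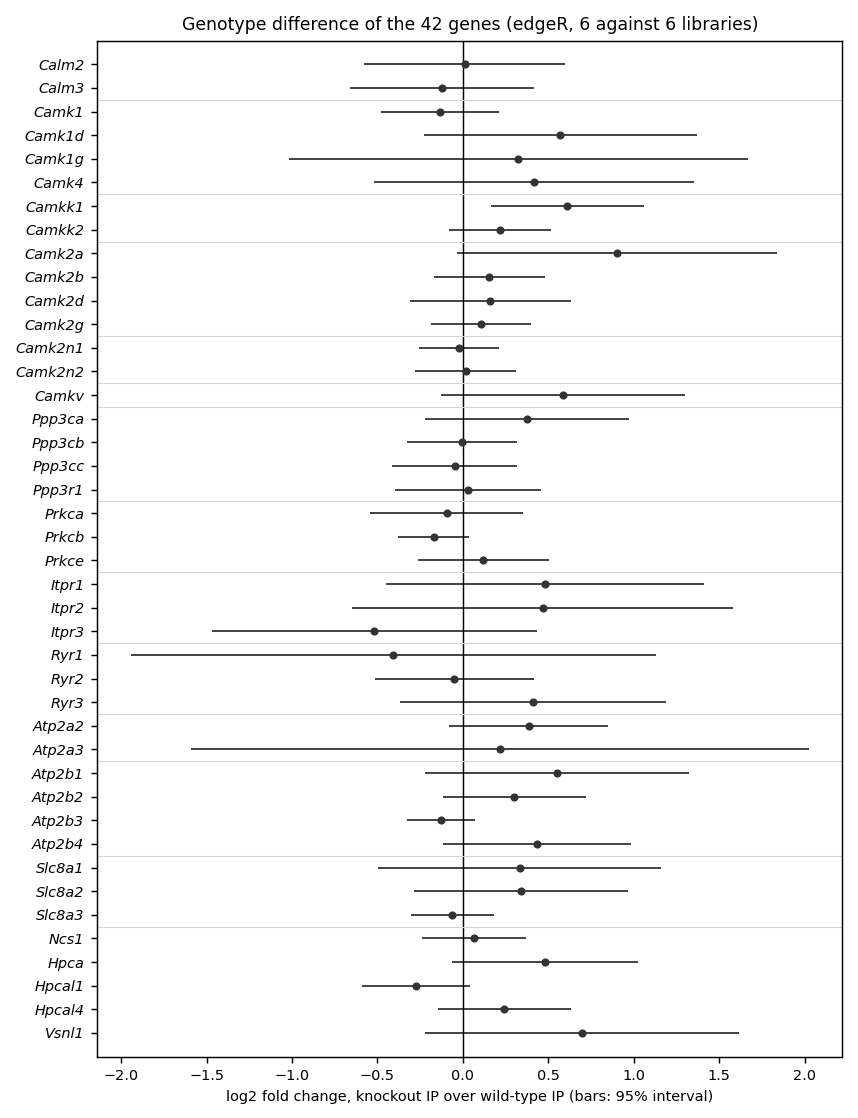
Log2 fold change of knockout over wild-type IP for the 42 genes with the 95% interval (edgeR, 6 against 6 libraries). The interval of Camkk1 alone does not reach 0, and its adjusted p was 0.999.

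The 10 members with the smallest p were Camkk1, Camk2a, Hpca, Hpcal1, Atp2a2, Prkcb, Camkv, Atp2b4, Vsnl1 and Camkk2. Camkk1, the 1 member with an unadjusted p under 0.05, averaged 9.82 ± 2.15 CPM in the wild-type and 14.7 ± 3.37 CPM in the knockout libraries, and 4 of 6 knockout libraries exceeded every wild-type value. Its difference on the log2 scale was 0.61, standard error 0.21 (edgeR's quasi-likelihood test, Benjamini-Hochberg adjusted p = 0.999, range over the alternatives 0.650 to 1). Camk2a averaged 175 ± 138 CPM in the wild-type and 320 ± 205 CPM in the knockout libraries, a log2 fold change of 0.90 (standard error 0.43, 95% interval -0.03 to 1.84, edgeR adjusted p = 0.999). The groups overlapped, and 2 knockout libraries, 1099 and 1102, exceeded every wild-type value. Fitted on libraries 682, 683, 852 and 855 alone, Camk2a had a log2 fold change of 0.84 and an edgeR adjusted p of 0.0114, against 1 at the other end of the alternatives. Wild-type libraries 682 and 852 held 120 and 76.0 CPM, and knockout libraries 683 and 855 held 176 and 171 CPM. Hpca had a log2 fold change of 0.48 (standard error 0.25, edgeR adjusted p = 0.999). Hpcal1 had -0.27 with a standard error of 0.15, and its 2 lowest libraries of the 12 were knockout libraries 1099 (44.8 CPM) and 1102 (48.0 CPM). Atp2a2 had 0.39 (standard error 0.21), Camkv 0.58 (0.33), Atp2b4 0.43 (0.25), Vsnl1 0.70 (0.42) and Camkk2 0.22 (0.14). Prkcb had -0.17 (standard error 0.10), with means of 1661 ± 266 CPM in the wild-type and 1456 ± 191 CPM in the knockout libraries. Leaving out libraries 1091, 1099 and 1102 together left all 10 with the same sign: Camkk1 had 0.48, Camk2a 0.72, Hpca 0.58, Hpcal1 -0.14, Atp2a2 0.20, Prkcb -0.13, Camkv 0.14, Atp2b4 0.29, Vsnl1 0.42 and Camkk2 0.13. Single libraries also moved these values. Vsnl1 had 0.27 without knockout library 1099 and 1.10 without wild-type library 1091, and Atp2a2 had 0.25 without 1099. With the glial and vascular score as a covariate Vsnl1 had 0.14, Camkv 0.04, Atp2a2 0.11 and Atp2b4 0.08.

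Whether the genotype difference was the same in the earlier libraries (682, 683, 852 and 855) as in the 8 later ones was tested by an interaction term, which gave 0 calls among 14317 genes with edgeR, and 325 had an unadjusted p under 0.05. Among the members, Itpr3 and Atp2a3 had unadjusted p-values under 0.05 (edgeR, 0.00942 and 0.0116, adjusted p = 1 for both). Both were under 5 CPM in every library.

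Other genes of the pathway were read from 7 lists outside the 42: calmodulin partners, the remaining protein kinase C isoforms and CaM kinases, phospholipase C, store-operated and mitochondrial entry, further sensors and buffers, and calcium-responsive transcription, 90 genes in all. Of 80 that reached 5 CPM, 7 were enriched and 17 depleted, against 4.71% and 11.1% of all genes, and the median log2 ratio to input was -0.45, against -0.07 for all genes. The enriched genes were Prkcq (3.46), Kcnip1 (3.32), Nrgn (3.06), Pde1a (2.73), Cabp1 (2.34), Dclk1 (1.63) and Plcl1 (1.48). Prkcq encodes a calcium-independent protein kinase C and had 61.8 CPM before and 694 ± 65.9 CPM after purification from wild type (SD, n = 6), and Nrgn encodes neurogranin, which holds calmodulin. The depleted genes included Gap43, Dapk2, Mylk, Phkg1, Calb1, Pvalb, Kcnip2, Kcnip4, Caln1, S100a10, S100b, Pde1b, Pde1c, Nfatc1, Crem and Mef2c, with medians from -4.94 for Caln1 to -1.65 for Crem. For the genotype, 0 of the 85 tested were called by edgeR, 3 had an unadjusted p under 0.05, and their median log2 fold change was 0.09.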

How the data were processed

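The files held counts of reads per gene symbol for 13 libraries, 1 table each. For the deposited counts, the submitters' processing notes name STAR 2.3.0e, HTSeq, DESeq2 and the mm10 build. Their settings, the annotation and the use of strand were not given in the sources used here. Per the labels' protocols the RNA was amplified with Ovation V2. The members and the other lists were chosen with earlier results of these data known. CPM used the totals of the 22682 shared symbols. The IP was compared with the input by the rule of size in the report (5 CPM, 1 CPM added, 2-fold). Genotypes were compared over the 23857 symbols shared by the 12 IP libraries with edgeR 4.0.16 in R 4.3.3: filterByExpr (minimum count 10, minimum total 15), TMM, robust quasi-likelihood test, library set as a term, two-sided p-values adjusted by Benjamini-Hochberg at 0.05; DESeq2 1.42.0 was an alternative. Genes named for genotype were Gpr151 and the 10 members with the smallest p, and for the input every member called and each family's leading member. Lengths and positions came from GENCODE M21, and the code was tested on simulated counts. Replicates are separate pools of mice, and no pair agreed within sampling noise (lowest chi-square per degree of freedom 17.8). Rows for reads outside genes (9.44% to 16.6% of alignments per IP library) or not unique (25.2% to 53.2%) were left out. The tables are mostly named for saline and the input's for saline and saccharin, while the labels name no treatment, so a treatment difference between input and IP cannot be told apart from purification. A gene counted in the pathway lists is not reported here by name.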

Additional observations from a re-analysis of the deposited data

Results flagged for a closer look

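In each group of 6 IP libraries, the gap from the highest or lowest library to its nearest neighbour was divided by the group's whole range, and values above 0.625 are given here. There were 18 in 84 groups, 12 of them from library 1091. The groups share the same 12 libraries, so the rate of about 1 in 20 for independent groups does not apply. At 5 CPM or more the share was 22.4% for the members (17 of 76 groups) and 7.28% for all genes (1514 of 20792 groups). In wild type, library 1091 was the highest for Camk1d (gap ratio 0.646; 115 CPM against 29.3 to 59.7 CPM), Camk4 (0.717), Camk2a (0.663), Camk2g (0.628), Ppp3ca (0.739), Itpr1 (0.755), Itpr2 (0.731), Ryr3 (0.651), Atp2a3 (0.651), Atp2b1 (0.714), Slc8a1 (0.668) and Vsnl1 (0.671). For Camk2g it held 111 CPM against 72.9 to 87.1 CPM in the other 5. Library 682 was the highest wild-type library for Camk2n2 (0.667; 179 CPM against 68.3 to 105 CPM) and Hpca (0.693). In knockout, library 683 was the highest for Hpca (0.666; 30.9 CPM against 4.59 to 13.4 CPM), library 1099 for Hpcal4 (0.719; 247 CPM against 129 to 162 CPM) and Vsnl1 (0.628), and library 1100 for Ppp3cc (0.700; 69.1 CPM against 35.8 to 45.8 CPM).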

How the results depend on the processing

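Of the genotype results for the 10 named members and Gpr151, 239 of 242 recomputed values kept their direction and side of the threshold, 1 became a call (Camk2a in the earlier libraries, 0.84) and 2 lost it (Gpr151, in the later libraries and without knockout library 683), and none reversed. Against 2 genes called, 1 was called with at least 1 CPM in 6 libraries, 0 with the later libraries only, 1 without libraries 1091, 1099 and 1102, and 12 by DESeq2, and leaving out 1 library gave 0 to 2. Against 0 members called, 1 was called in the earlier libraries only (2 of 13958 over all genes). The interaction of genotype with library set was 0 calls.

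Members enriched stayed between 2 and 3. Against 7 members depleted, 13 passed at 1.5 times, 2 at 3 times, 21 with the earlier libraries only, 3 with the knockout IP in place of the wild-type IP and 4 with edgeR's pooled spread (1392 of 16211 over all genes), and leaving out 1 library gave 7 to 16, the 16 without wild-type library 1091 (1664 of 11451 over all genes). Over all genes, 538 enriched became 952 at 1.5 times, 273 at 3 times, 1014 with the earlier libraries and 1023 with edgeR, and 1274 depleted became 1969, 623 and 2056 in the first 3 and 810 with the knockout IP. With totals of all genes each table lists, an alternative chosen after seeing the data, 649 were enriched and 927 depleted, and the median of all genes was 0.11. The cause was not tested. Slc8a1 lost its call at 3 times, with the knockout IP and with edgeR, and kept it in the other settings. Of 39 family shares, 12 moved by more than the spread between replicates: with coding length Slc8a1 held 69.4% of the exchangers, Camk2n1 76.3% of the inhibitors and Atp2b3 55.7% of the pumps. Totals without Rn45s gave no further value, as that transcript is not among the shared symbols. No paired analysis was possible because the 8 later libraries carry no label that pairs them. The library set term already sets 682 against 683 and 852 against 855, so leaving out either library of such a pair takes the other's share in the genotype estimate with it (Camkk1 had 0.685 without 682 or without 683, and 0.642 without 852 or without 855). Depth limits what can be said of Ryr1, Atp2a3 and Itpr3.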
